A study of Mus musculus with 3 samples.

Results

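Oxidative phosphorylation genes were examined in adipose stem and progenitor cells of the mouse. They were taken as every gene whose symbol begins with Nduf, Uqcr, Cox4 to Cox8 or Atp5, the 4 genes Sdha to Sdhd, and every protein-coding gene of the mitochondrial chromosome. This gave 113 of the 27179 genes in the count table, 100 of them nuclear and 13 mitochondrial. The nuclear set held 84 structural subunits, 8 assembly factors of complex I, the supercomplex factor gene Cox7a2l, 2 near copies of Ndufb4 and 5 pseudogenes. Ndufb1, which the naming rule would also take, had no row matched here and was not analysed.

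Epididymal fat was taken from male wild-type mice, naive and aged 12 weeks, of a strain labelled C57B6. After collagenase digestion, live cells without CD45, CD31 and Ter119 and with CD140a, Sca1 and PDPN were sorted, which removes leukocytes, endothelium and the erythroid lineage. There were 3 libraries of this 1 group, with 32813373, 25060096 and 27275888 counts. Since no library is tied to 1 of the 3 mice that gave the tissue, part of the spread among libraries, and so every p-value, may be technical. All 6 marker genes of these progenitors (Pdgfra, Ly6a, Pdpn, Dcn, Cd34 and Col1a1) were detected, meaning at 1 CPM or more in every library. CPM is the count scaled to the size of the library. Pdgfra, Ly6a and Pdpn encode CD140a, Sca1 and PDPN. Among the markers of other cells, Ptprc and Pecam1 encode CD45 and CD31. Cells were sorted on these proteins, so these genes are not an independent check of cell identity. Of the 34 markers of other cells 1 was detected, the leukocyte gene Ptprc, and the summed level of the 5 leukocyte markers was between 6.46 and 17.5 CPM against 43150 to 54520 CPM for the progenitor markers.

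Oxidative phosphorylation makes ATP in the inner mitochondrial membrane. Complexes I (NADH dehydrogenase) and II (succinate dehydrogenase) pass electrons to complex III and, through cytochrome c, to complex IV (cytochrome c oxidase), and complexes I, III and IV pump protons that drive ATP synthase, complex V. The mitochondrial chromosome encodes a small set of catalytic or membrane subunits of complexes I, III, IV and V, and the nucleus encodes all the others, including the whole of complex II, so both genomes must supply parts of the same machines. In adipose progenitors this capacity is known to be remodelled as the cells become fat cells.

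Most members had RNA in these cells, and in such bulk libraries fewer cells that express a gene and less RNA per cell cannot be told apart. At 1 CPM or more in every library 95 of 113 members (84.1%) were detected, against 35.0% of all genes in the table and 43.7% of its protein-coding genes. The 18 undetected members were 4 mitochondrial genes, 4 broadly expressed nuclear subunits (Sdhd, Uqcr11, Atp5d and Atp5g2), 5 tissue-restricted isoforms of complex IV subunits, 4 pseudogenes and the near copy Ndufb4c. Those 4 pseudogenes had between 1 and 15 counts in a library and Ndufb4c 27, 12 and 19, while the pseudogene Ndufs5-ps had 8.50, 9.51 and 11.2 CPM and the near copy Ndufb4b 5.54, 3.33 and 2.75. Levels below are CPM scaled with TMM library sizes, given as mean ± SD over n = 3 libraries. Where different genes are compared, levels are CPM per kilobase of merged exons.

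The 13 mitochondrial genes took 2.24%, 1.84% and 1.73% of all counts in libraries 1, 2 and 3. Each exact 95% binomial interval, for counting error alone, was narrower than these steps (2.239% to 2.249%, 1.837% to 1.848% and 1.724% to 1.734%), and library 1 was the highest. These counts fell on 7 genes almost entirely: ND1, ND2, ND4, ND5 and ND6 of complex I, CYTB of complex III and COX1 of complex IV held 99.97%, 99.97% and 99.96% of them. The other 6, which are COX2, ATP8, ATP6, COX3, ND3 and ND4L, lie next to each other on the chromosome and had between 0 and 86 counts in any library, while the 7 had 12916 or more.

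The genes near 0 lie in a stretch of the mitochondrial chromosome that is also present in the nuclear genome. In GENCODE transcripts (build GRCm38), 50-base windows of COX1, COX2, ATP6, COX3, ND3, ND4L and ND4 were found letter for letter in 7 annotated pseudogenes on chromosome 1, between positions 24611535 and 24616197. The shared windows span positions 6394 to 11042 of the mitochondrial chromosome, 4649 bases in all. They take in 99.5% of the windows of COX2, 99.5% of ATP6, 99.9% of COX3, 98.0% of ND3 and 98.8% of ND4L, but 28.7% of COX1 and 62.2% of ND4, which reach outside the stretch, and 0% of ND1, ND2, ND5, ND6 and CYTB. Copies on other nuclear chromosomes share a further 8.19% of the windows of ND2 and 7.61% of those of ND5. ATP8 has no annotated copy of its own there, yet it lies between the copies of COX2 and ATP6, which are 233 bases apart on both chromosomes. How the counting treated reads that match both places is not given in the sources used here, so the low counts of these 6 genes cannot be read as low RNA.

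Both pairs below show where the copy starts and how close it is. The first pair is from COX1 (chrM:6386-6445, forward strand) and its copy Gm29216 (chr1:24616133-24616192, reverse strand, GRCm38), with capitals at the 4 of 60 bases that differ, all of them at the left end. The second pair is the first 60 bases of COX3 (chrM:8607-8666, forward strand) and its copy Gm28437 (chr1:24613912-24613971, reverse strand), with 0 differences and so no capitals.
COX1: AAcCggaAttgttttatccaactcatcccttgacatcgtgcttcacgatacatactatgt
Gm29216: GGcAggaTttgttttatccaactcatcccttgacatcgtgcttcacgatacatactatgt
COX3: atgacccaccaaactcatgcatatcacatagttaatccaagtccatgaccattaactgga
Gm28437: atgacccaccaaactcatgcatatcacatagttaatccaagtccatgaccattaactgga

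Among the genes outside the stretch, ND1 and CYTB had the highest levels. ND1, a membrane subunit of complex I (positions 2751 to 3707), stood at 6625, 5224 and 5283 CPM per kilobase. CYTB, the cytochrome b that is complex III's one mitochondrially encoded subunit (14145 to 15288), stood at 5690.1, 4045 and 3264. ND1 was above CYTB in 3 of 3 libraries although their ranges overlap, and library 1 was the highest for both. ND2 followed at 2786, 2709 and 2562, with a narrow range. ND6, which lies on the other strand (13552 to 14070), had 1277, 986 and 1026, and ND5 had 539, 368 and 339.6, the lowest of the 7. ND6 reads cannot be told apart from antisense RNA of the opposite strand, because strandedness is not given in the sources used here.

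For COX1, the catalytic subunit of complex IV (5328 to 6872), and ND4, another membrane subunit of complex I (10167 to 11544), part of the gene lies in the copied stretch. Over the whole gene COX1 had 2295, 1739 and 1371 CPM per kilobase and ND4 1634, 1437 and 1534. Taken over the 1066 bases of COX1 and the 502 bases of ND4 outside the stretch alone, with every count assigned to them, the means were 2611 ± 675 and 4214 ± 270.0. That calculation puts ND4 above ND2 and COX1, an order that the whole-gene values do not give. For ND4 it is an upper reading of the level. COX1 also shares windows with a further pseudogene on chromosome 2, some of them within its 1066 bases outside the stretch. In all 51.1% of its windows are shared, so for COX1 the calculation is not an upper limit.

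**Figure D1:**
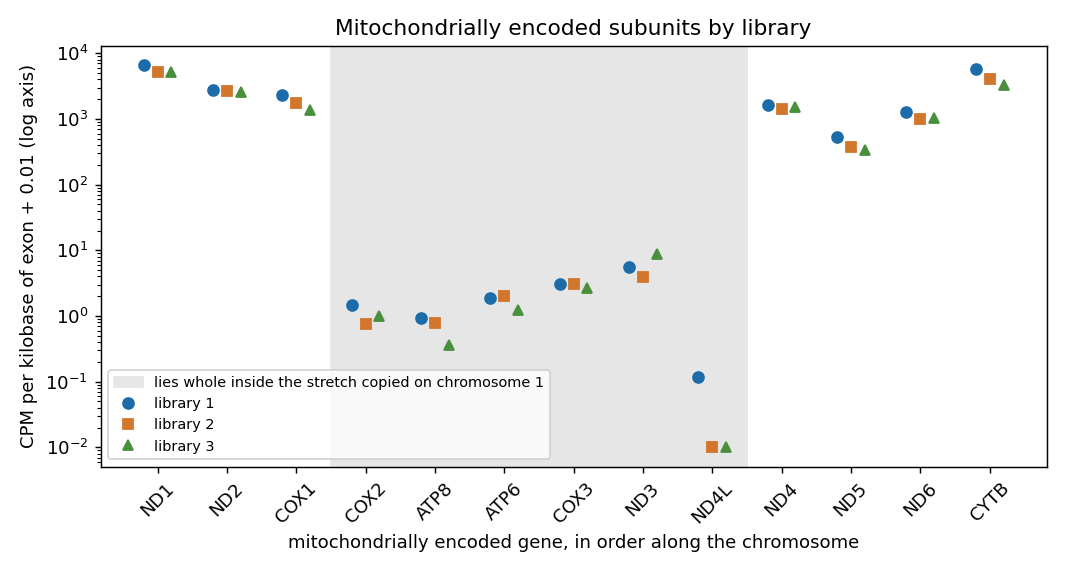
Level of each mitochondrially encoded gene in CPM per kilobase of exon (plus 0.01, log axis) in the order of the chromosome, with 1 point per library and the genes that lie whole inside the copied stretch shaded. The 6 shaded genes sit below 10 in every library and the 7 others above 300.

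By the median per kilobase of merged exons, nuclear subunits of complexes I, III and V had similar levels, and complex II was lower. The median of log2(CPM per kilobase + 0.5) over the 36 structural subunits of complex I was 7.20, 6.71 and 7.07 in libraries 1 to 3. For the 8 of complex III it was 6.79, 6.59 and 7.05, for the 17 of complex V 6.62, 6.64 and 6.93, and for the 4 of complex II 5.08, 5.15 and 4.58. The complex III minus complex I difference, -0.18 ± 0.20, and the complex V minus complex I difference, -0.26 ± 0.27, were no larger than their own spread over libraries. With means of members in place of medians these differences were -0.61 ± 0.13 and -0.92 ± 0.06, larger than their spread. By medians, the complex II minus complex I difference was -2.06 ± 0.47, with 1 sign in 3 of 3 libraries. No test was made over these chosen lists.

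The place of complex IV depended on which subunits were counted. Over all 19 subunits, 8 of which are isoforms used in particular tissues, its median was 5.91, 5.73 and 5.62, which is -1.24 ± 0.24 against complex I. Over the 11 broadly expressed subunits alone it was 8.37, 8.36 and 8.58, which is 1.44 ± 0.25 above complex I and the highest of the 5 complexes. The sizes also moved with the length used. The length of the principal transcript was also used in place of merged exons. Complexes II, III, IV (all 19 subunits) and V then differed from complex I by -3.17 ± 0.50, -1.43 ± 0.06, -2.11 ± 0.28 and -0.71 ± 0.31. Complexes III and V were thus below complex I by more than their spread. The 11 broadly expressed subunits of complex IV kept the highest median with that length, at 709.7 CPM per kilobase against 371 for complex I.

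**Figure D2:**
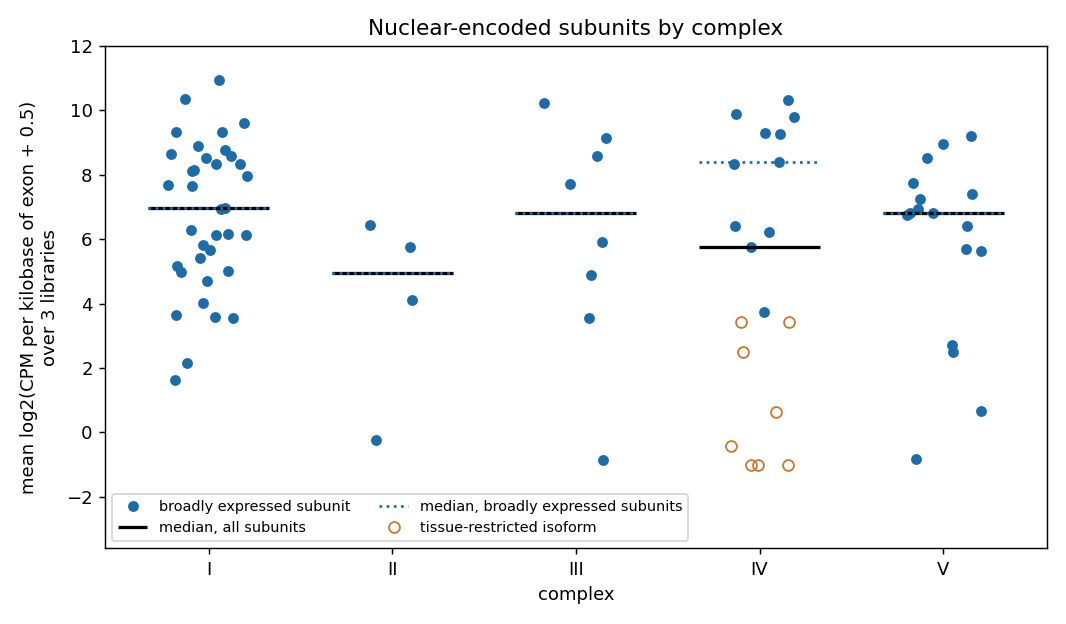
Mean log2(CPM per kilobase of exon + 0.5) over 3 libraries for each of 84 nuclear structural subunits, by complex, with open circles for tissue-restricted isoforms and lines at the medians of the plotted points. In complex IV the median lies near 5.8 over all subunits and near 8.4 over the broadly expressed ones, and 1 or 2 subunits of complexes II, III and V lie far below their neighbours.

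In complex I, all 36 nuclear structural subunits were detected, and the accessory subunits had more RNA per kilobase than the core subunits. Core subunits carry the flavin and the iron-sulfur clusters that take electrons from NADH to ubiquinone, and accessory subunits surround them. The 29 accessory genes had a median of 252 CPM per kilobase and the 7 nuclear core genes 31.5. The core minus accessory difference of medians was -3.23, -3.10 and -2.71 on the log2(CPM per kilobase + 0.5) scale in libraries 1 to 3, and -3.16 ± 0.15 with the length of the principal transcript. Without division by length it was -2.14 ± 0.11. The merged exons of the core genes had a median of 2178 bases and those of the accessory genes 1251. Over the 76 broadly expressed subunits of all complexes, the level per kilobase had a Spearman rho of -0.56 with merged exon length and 0.03 with GC percent. Division by length enters the first of these by construction, and rho between undivided CPM and merged exon length was -0.26. These are descriptions across genes, which share libraries and are not independent replicates.

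The accessory genes with the highest level per kilobase were Ndufa1, Ndufa2 and Ndufa3, and the lowest were Ndufab1, Ndufa10 and Ndufa8. Ndufa1, a small X-linked subunit of the membrane arm, had 862, 800.1 and 817 CPM, or 1972 ± 76.5 per kilobase. Ndufa2 had 757, 678 and 797 CPM, and Ndufa3 782, 723 and 917. All 3 varied little between libraries. Ndufab1, the mitochondrial acyl carrier protein, had 19.5, 16.3 and 18.1 CPM, but 12.3% of its windows match annotated copies elsewhere. Ndufa10 had 5.80, 26.5 and 14.2 CPM and Ndufa8 10.4, 5.98 and 15.5. Both were low in all libraries and spread widely in relative terms. Neither had a window in an annotated copy. The 10 Ndufb genes, which build the far end of the membrane arm, ranged from 31.8 (Ndufb4) to 644 (Ndufb6) CPM per kilobase.

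Among the core genes, Ndufv2, an iron-sulfur subunit of the NADH-oxidising tip, had the highest level, at 328, 210.0 and 283 CPM. Ndufs1, the largest iron-sulfur subunit, had 82.2, 91.4 and 97.2 CPM. Ndufv1, which binds NADH and the flavin, had 20.6, 57.5 and 26.1 CPM, with library 2 high, while Ndufs8, a subunit with 2 iron-sulfur clusters near the ubiquinone site, had 81.8, 27.6 and 70.7, with library 2 low. Ndufs7, which holds the last cluster of the chain, had 241, 88.5 and 80.2, with library 1 high. Ndufs3, another subunit of the arm that reaches the ubiquinone site, had 44.9, 18.6 and 47.4 CPM, with library 2 low, and 35.8% of its windows match copies.

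All 8 Ndufaf assembly factors, which build complex I but are not part of it, were detected. Their median was 17.0 CPM per kilobase, and the assembly minus accessory difference was -3.57, -3.26 and -4.63 in libraries 1 to 3. Ndufaf8 stood apart from the other 7 at 141, 63.0 and 163 CPM, or 147 per kilobase, which is above the median of 125 over the complex I subunits. Ndufaf1, which helps build the membrane arm, had 29.0, 41.1 and 10.6 CPM and Ndufaf6 22.3, 36.1 and 7.50, both with library 3 low, whereas Ndufaf7, a methyltransferase, had 50.8, 13.8 and 18.5. Ndufaf5, which hydroxylates Ndufs7, varied least, at 10.1, 12.5 and 12.3. The median coefficient of variation over the 8 was 36.5%, against 12.6% for the 51 nuclear structural subunits at 100 CPM or more and 18.0% for all 1761 genes at that level. It was 33.2% for all 9515 detected genes, and 7 of the 8 assembly factors lie below 100 CPM.

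**Figure D3:**
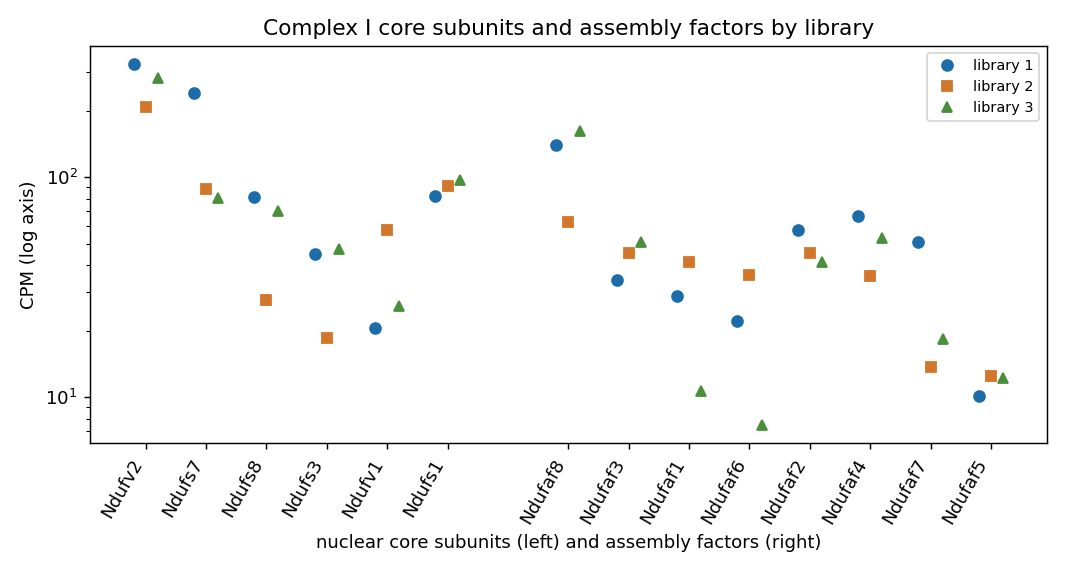
CPM (log axis) of 6 nuclear core subunits and the 8 assembly factors of complex I, with 1 point per library. Ndufs7 is high in library 1, Ndufs8 and Ndufs3 are low in library 2, and Ndufaf1 and Ndufaf6 are low in library 3, with no direction shared by the whole group.

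In complex II, which is wholly nuclear, 3 of 4 subunits were detected. Sdha, the flavoprotein that oxidises succinate, had 243, 229 and 194 CPM, and Sdhb, its iron-sulfur partner, 209.8, 201 and 174. Both were lowest in library 3. Sdhc, a membrane anchor, had 61.2, 71.4 and 37.3. Sdhd, the other membrane anchor, had 41, 5 and 3 counts, or 1.29, 0.198 and 0.107 CPM, although its protein pairs with that of Sdhc. No window of Sdhd matched another annotated gene, and no exon of another gene overlapped it.

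In complex III, 7 of 8 nuclear subunits were detected. Uqcr10, a small subunit, had the highest level at 747, 619.8 and 749 CPM, or 1208 ± 127 per kilobase. Uqcrb had 542, 508 and 447 CPM, with 43.2% of its windows in copies, and Uqcrh, the hinge protein, 487, 416 and 519. The large core proteins were lower per kilobase: Uqcrc1 had 51.1, 54.3 and 36.5 CPM and Uqcrc2 74.1, 87.9 and 63.5, or 11.4 ± 2.29 and 29.5 ± 4.79 per kilobase. Uqcrfs1, the Rieske iron-sulfur protein, had 59.9 ± 6.92 per kilobase. Uqcr11, another small subunit, had 2, 0 and 1 counts, under the limit of 3 counts set here for a count of 0, and 10.9% of its windows match a copy. Cyc1, the cytochrome c1 of this complex, whose name the rule does not take, had 24.3, 58.5 and 67.2 CPM.

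In complex IV the broadly expressed isoform was higher than the tissue-restricted one in every library for each of 6 pairs. The pairs are alternatives for 1 subunit: Cox6a2, Cox7a1 and Cox8b are known from heart and skeletal muscle, Cox6b2 and Cox8c from testis, Cox4i2 from lung and oxygen-sensing cells, and Ndufa4l2 as a target of the hypoxia-inducible factors. Ndufa4, named after complex I, is counted here with complex IV, where its protein is known to sit. On the log2(CPM per kilobase + 0.5) scale the differences were 11.33 ± 0.16 for Cox6a1 minus Cox6a2, 8.79 ± 1.12 for Cox4i1 minus Cox4i2, 8.67 ± 2.25 for Cox8a minus Cox8b, 7.40 ± 0.73 for Ndufa4 minus Ndufa4l2, 6.37 ± 0.13 for Cox6b1 minus Cox6b2 and 2.33 ± 0.85 for Cox7a2 minus Cox7a1. Each exact sign-flip permutation test over 3 libraries, two-sided, gave p = 0.25, also after Benjamini-Hochberg adjustment over the 6 pairs, and 0.25 is the smallest p that 3 libraries allow.

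The values behind these pairs differ in kind. Cox6a1 had 952, 799 and 975 CPM, while Cox6a2 had 0 counts in all libraries. Against 3 counts over the group, Cox6a1 was at least 25081-fold higher per kilobase, for counting error alone. Cox7b2 and Cox8c also had 0 counts in every library. Cox4i1 had 482, 480.2 and 594 CPM, while Cox4i2 had 0, 24 and 0 counts, all in library 2. Cox8a had 401, 343 and 427 CPM, while Cox8b had 5, 67 and 0 counts, again mostly in library 2. The summed level of 5 striated muscle markers was 0.977, 3.05 and 0.143 CPM, in the same order of libraries as Cox8b, and its part in that result was not tested.

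The other 3 restricted isoforms were detected. Cox6b2 had 10.9, 11.2 and 12.1 CPM, nearly equal between libraries, beside 667, 579 and 645 for Cox6b1, which lies at the surface facing cytochrome c. Cox7a1 had 4.85, 3.33 and 9.96 CPM, highest in library 3, beside 56.1, 49.6 and 46.1 for Cox7a2. Ndufa4l2 had 11.6, 5.15 and 2.82 CPM, highest in library 1, beside 1549, 1239 and 1179 for Ndufa4, which had the highest CPM of all nuclear members. Markers of mural cells, in which Ndufa4l2 is also known, summed to 3.88, 4.52 and 5.43 CPM, the reverse order of libraries. Of these 4 markers 0 were detected, and the part of mural cells in the Ndufa4l2 level was not tested.

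**Figure D4:**
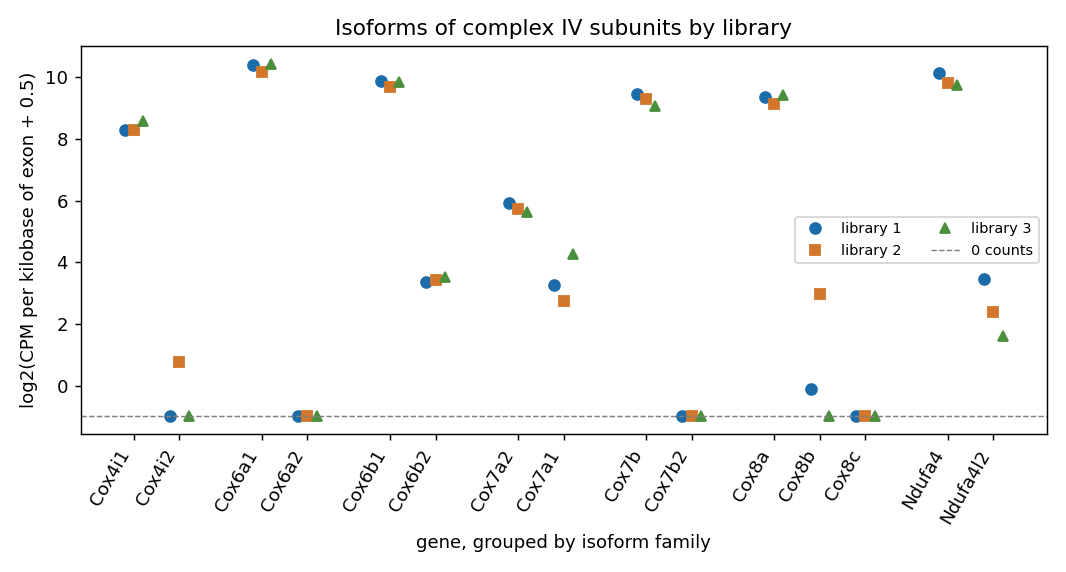
Level in log2(CPM per kilobase of exon + 0.5) of isoforms of complex IV subunits, grouped by family, with 1 point per library and a dashed line at 0 counts. The broadly expressed form is above the restricted form in every library and family, with the smallest gap between Cox7a2 and Cox7a1.

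Of the remaining complex IV subunits, Cox6c had 1174, 1169.7 and 1126 CPM, a narrow range, and Cox7b 843, 763 and 654. Cox5a and Cox5b, whose proteins lie on the matrix side, had 159.5 ± 40.04 and 135 ± 14.0 CPM. Cox7c had 14.7, 14.8 and 14.0, low and nearly equal in all libraries, and 53.0% of its windows match 3 annotated copies. Cox7a2l, whose protein joins complexes III and IV into supercomplexes, had 88.6, 85.7 and 95.5 CPM, or 60.8 ± 3.41 per kilobase against 53.6 ± 5.37 for Cox7a2, and 19.8% of its windows match copies.

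In ATP synthase, 15 of 17 nuclear subunits were detected. In the catalytic F1 head, Atp5b, the beta subunit that binds and releases ATP, had 357, 354 and 352 CPM, the smallest coefficient of variation (0.697%) of the 51 nuclear structural subunits at 100 CPM or more, and Atp5a1, the alpha subunit, had 307, 365 and 382. Atp5c1, the rotating gamma subunit, had 340.5, 328 and 211 and was lowest in library 3. Atp5e, the small epsilon subunit, had 352, 329 and 470.4. Atp5d, the delta subunit that sits beside them in the rotor, had 141, 7 and 89 counts, or 4.44, 0.277 and 3.18 CPM. No window of Atp5d matched another annotated gene.

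In the stalk and membrane parts, Atp5j, a peripheral stalk subunit also known as F6, had the highest CPM of the nuclear ATP synthase genes, at 1249, 1069 and 1154, but per kilobase it stood at 369.7, below Atp5mpl at 591 and Atp5k at 498. Atp5mpl and Atp5k, small membrane subunits, had 838, 669 and 649 and 289, 278 and 354 CPM. Atp5l, another, had 34.2, 27.7 and 38.2, and 68.5% of its windows match copies. The ring that turns with proton flow is encoded by 3 genes whose mature protein is the same: Atp5g3 had 357, 334 and 424 CPM, Atp5g1 39.0, 26.1 and 25.5, and Atp5g2 3, 2 and 4 counts. Of the windows of Atp5g2, 87.4% match 2 other annotated genes, against 11.6% for Atp5g1 and 0% for Atp5g3, so the order of the ring genes is uncertain.

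Sharing windows with other genes was more frequent among the low subunits than among the others, but did not set apart all of them. Its part in the low counts was not tested. Of the 8 broadly expressed subunits under 20 CPM, 4 had 10% or more of their windows in copies (Ndufab1, Uqcr11, Cox7c and Atp5g2), as did 14 of the 68 above it. The other 4 were Ndufa8, Ndufa10, Sdhd and Atp5d, with 0%. Copies that are not annotated were not searched, because no genome sequence was used.

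Compared within each library, mitochondrial subunits had more RNA per kilobase than nuclear subunits of the same 4 complexes. The difference of medians was 2.06 ± 0.31 on the log2(CPM per kilobase + 0.5) scale over all 13 mitochondrial genes, and 4.23 ± 0.26 without the 6 genes inside the copied stretch, with 1 sign in 3 of 3 libraries. Over all 13 genes it was 0.20 ± 0.16 with means over genes in place of medians. Those means include the 6 genes near 0, whose counts cannot be read as low RNA. Summed, the nuclear structural subunits took 2.56%, 2.302% and 2.68% of counts. Their ratio to the counts of all 13 mitochondrial genes was 1.14, 1.25 and 1.55, lowest in library 1. Those counts also include the 6 genes near 0 and the copied parts of COX1 and ND4. The ratio therefore does not show which genome had more RNA.

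Promoters of the nuclear subunits were searched for sites of factors known to drive these genes. RefSeq windows from 250 bases before to 50 bases after a start (GRCm38.p6) were held for 77 of the 100 nuclear members, 64 of them broadly expressed subunits with 69 windows. The motif of NRF1, nuclear respiratory factor 1 (GCGCA, any base, GCGC, both strands), was in 26.1% of these windows, against 10.5% of 9610 windows of other detected genes and 4.60% of all 32851 windows. The motif of GABPA, an ETS factor (CCGGAAG, both strands), was in 24.6%, against 18.6% and 8.86%. The motif of YY1 (AAGATG followed by GCGG, both strands) was in 7.25%, against 2.24% and 0.852%. That of the estrogen-related receptors (TCAAGGTCA, both strands) was in 2.90%, which is 2 windows, against 0.208% and 0.423%. None of these motifs contains another. A match is a run of letters and not a bound site, and no binding was measured.

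The 4 stretches below show such matches in place, for 1 highly expressed subunit each of complexes I, III, IV and V with an NRF1 or GABPA match before the start. Capitals mark the matches, all 4 lie on the reverse strand of GRCm38.p6, and each reads toward the start of the gene. They are Ndufa5 (chr6:24527682-24527741), Uqcrh (chr4:116075071-116075105), Cox6a1 (chr5:115348959-115349145) and Atp5k (chr5:108434415-108434474). Ndufa5 and Atp5k hold 1 NRF1 match each, Uqcrh 1 GABPA match, and Cox6a1 2 NRF1 matches and 1 GABPA match. These examples do not tie a match to a high level. The windows of Ndufa1 and Uqcr10, highest per kilobase in complexes I and III, held neither motif. Of the undetected broadly expressed subunits, Sdhd, Uqcr11 and Atp5g2 had an NRF1 or GABPA match and Atp5d had none.
Ndufa5: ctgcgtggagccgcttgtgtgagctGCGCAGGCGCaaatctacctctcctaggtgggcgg
Uqcrh: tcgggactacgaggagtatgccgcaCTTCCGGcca
Cox6a1: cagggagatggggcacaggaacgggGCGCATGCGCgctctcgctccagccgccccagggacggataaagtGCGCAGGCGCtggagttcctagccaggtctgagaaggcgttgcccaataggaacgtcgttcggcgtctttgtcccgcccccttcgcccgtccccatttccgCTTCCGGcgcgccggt
Atp5k: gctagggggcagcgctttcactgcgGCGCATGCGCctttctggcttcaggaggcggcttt

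The factors themselves were low or moderate, and the coactivator genes Ppargc1a and Ppargc1b were near 0. Of 10 regulators of mitochondrial biogenesis 6 were detected: Yy1 at 86.4 ± 38.3 CPM, Gabpa at 59.1, 66.5 and 41.3, Pprc1, a related coactivator gene, at 24.3 ± 7.97, Gabpb1 at 21.5 ± 10.4, Nrf1 at 16.6, 20.6 and 11.0, and Esrra at 12.4, 3.84 and 4.32. Ppargc1a and Ppargc1b, which encode PGC-1 coactivators known to raise mitochondrial content, had 0.0315, 0.0793 and 0.0357 and 0.126, 0.0793 and 0.0714 CPM. Genes for the expression and copying of the mitochondrial chromosome were detected in 12 of 16 cases. Per kilobase they were led by Slirp, Mterf4, Mterf3 and Tfam, the factor that packs and transcribes that chromosome (73.3, 61.9 and 44.3 CPM). Tfb2m, its partner at the promoter, had 10.05, 0.713 and 3.04, so it was under 1 CPM in library 2.

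Assembly factors of the other complexes were mostly detected. Complex II factors were detected in 4 of 4 cases, led by Sdhaf4 at 229 ± 33.6 CPM, complex III factors in 5 of 6, led by Uqcc2 at 579 ± 126, and complex IV factors in 15 of 23, led per kilobase by Cox20, Coa3 and Cox14. Sco2, a copper chaperone of complex IV, had 0 counts in every library. For complex I, factors outside the Ndufaf names were detected in 6 of 10 cases. Atpif1, the inhibitor of ATP synthase, had 739.7, 724 and 1163 CPM, highest in library 3 and above every F1 subunit gene in each library. Atpaf1, which helps assemble F1, had 0.346, 0.634 and 0.0357.

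Genes around the chain were measured as well. Cytochrome c, Cycs, had 12.9, 6.38 and 11.0 CPM, and its testis form Cyct was not detected. Mitochondrial ribosomal protein genes were detected in 72 of 78 cases and tricarboxylic acid cycle genes in 12 of 13, with a median of 13.9 and 16.1 CPM per kilobase against 112 for the 76 broadly expressed subunits. Among carriers, Slc25a4, the ATP and ADP exchanger, had 241 ± 51.5 CPM and Slc25a5, its paralog, 75.1 ± 17.4. The uncoupling protein genes were near 0, with Ucp1 at 0, 2 and 0 counts, Ucp2 at 0.221, 0.0396 and 3.32 CPM and Ucp3 at 3, 0 and 0 counts.

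Each library was also compared with the other 2, a design with 1 library in an arm, in which a missing call does not show that libraries were alike. Among 13289 genes tested, of which 103 were members, edgeR's quasi-likelihood test with Benjamini-Hochberg adjustment called 0 members and 0 genes (0.00%) in each of the 3 comparisons. At an unadjusted p under 0.05 there were 4, 3 and 1 members in libraries 1, 2 and 3, which is 3.88%, 2.91% and 0.971% of members against 3.85%, 4.96% and 5.07% of all genes. The 4 in library 1 were Ndufs7 (log2 difference 1.51, adjusted p = 0.99), CYTB (0.64), ND5 (0.61) and COX1 (0.56), all higher there (edgeR quasi-likelihood test). Those in library 2 were Ndufs8 (-1.47), Ndufaf8 (-1.27) and Ndufb10 (-0.87), and in library 3 CYTB (-0.58). DESeq2's Wald test gave Ndufs7 a log2 difference of 1.52 in library 1. Its calls differed from those of edgeR and are not read as a result about the members. In library 2 the median log2 difference was -0.26, 0.06, -0.22, -0.09 and -0.19 over the nuclear subunits of complexes I to V, beside -0.10 over all genes tested. In library 1 these medians were 0.07, 0.19, 0.06, 0.08 and 0.06, beside -0.08. In library 3 they were 0.16, -0.56, 0.13, -0.07 and 0.21, beside -0.10.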

How the data were processed

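RNA of sorted cells was amplified with a low-input SMARTer kit and sequenced as 3 libraries, per the labels' protocols. The authors deposited raw gene counts, as whole numbers under NCBI gene identifiers. Tools named in the submitters' processing notes are STAR 2.3.0 and CASAVA 1.8.2, with build mm10. Not given in the sources used here are the counting tool, its annotation, its strandedness and how it treated reads with several matches. In the RefSeq table of GRCm38.p6, 25275 IDs matched.

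CPM used TMM library sizes (edgeR 4.0.16, R 4.3.3). Lengths came from GENCODE M21 and 2 members had none. Merged exons of some genes are far longer than their principal transcript, so the principal transcript was added as an alternative after the data were seen. Log2 values used a pseudocount of 0.5, which understates differences of low genes. A window match was 50 identical bases in a transcript of another gene, and copies are genes that do not overlap the member. Library contrasts (1 against 2) used edgeR's quasi-likelihood test on genes with 10 counts or more in any library, or DESeq2 1.42.0. On simulated counts with known changes, the quasi-likelihood test missed many of the changed genes. The single library is taken to have the spread of the remaining pair. Zero counts were limited at 3 counts, or 0.0945, 0.119 and 0.107 CPM. Python 3.11.15 was used with pandas 2.3.3 and scipy 1.17.1.

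The members and lists were chosen with earlier results of these data known. Any member could be named. Values in every library were set for mitochondrial genes, the 3 highest and 3 lowest nuclear subunits of each complex per kilobase, isoform families and undetected members, and for up to 4 genes per list with the highest level per kilobase, besides Ppargc1a, Ppargc1b, Nrf1, Gabpa, Esrra, Tfam and Ucp1 to Ucp3. Tfb2m, Sco2, Atpaf1 and Cyct were chosen after their values were seen. The values of 1 member are not reported here.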

Additional observations from a re-analysis of the deposited data

How the results depend on the processing

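Lengths and the choice of members moved the comparisons of complexes most. Against complex I, with means of members in place of medians, complexes II, III, IV and V differed by -2.74, -0.61, -1.81 and -0.92. Without division by length, II, III and IV differed by -1.51, -0.71 and -2.53. With the longest transcript, III differed by -0.58, and with the principal transcript II, III, IV and V differed by -3.17, -1.43, -2.11 and -0.71. Without members that have copies, II, III and IV differed by -2.71, -0.84 and -3.94. Without tissue-restricted isoforms, complex IV turned to 1.44. The mitochondrial minus nuclear difference was 0.20 with means, 1.15 without length, 1.39 with the longest and 1.02 with the principal transcript, 1.75 without restricted isoforms, 3.70 without members that have copies and 4.23 without the copied stretch. Cox4i1 minus Cox4i2 was 10.47 at a pseudocount of 0.1. Cox6a1 minus Cox6a2 was 10.82 without length, 11.51 and 11.63 with the longest and principal transcript, and 13.65 and 10.33 at pseudocounts of 0.1 and 1, so that its size is set by the pseudocount. Cox6b1 minus Cox6b2 was 5.73 without length and 5.67 with either transcript length, and Ndufa4 minus Ndufa4l2 was 8.37 with the principal transcript. The mitochondrial share was 3.00% with the ribosomal RNAs. The calls among members in library 1 also changed with DESeq2's Wald test. The cause of these moves was not tested beyond what each alternative leaves out or divides by. The other 123 of 158 alternative values kept their direction and stayed within the spread between libraries, or for counts within 1.5 times. No paired analysis was possible because the series has 1 group.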
